A study of Mus musculus with 8 samples.

Results

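The 8 genes described here encode inhibitors of the transcription factor NF-kB. They were taken from the deposited table of mouse regulatory T (Treg) cells by gene symbol, and all 8 of the 8 symbols were found among the 22432 genes listed. They comprise 3 classical IkB proteins (Nfkbia, Nfkbib and Nfkbie), 3 nuclear IkB proteins (Nfkbiz, Nfkbid and Bcl3) and 2 deubiquitinases (Tnfaip3, which encodes A20, and Cyld). All 8 passed the filter on low values and were among the 13797 genes tested. The study removed Relb, Nfkb2 or both from Treg cells, the pair of subunits that make up the alternative NF-kB pathway, and sequenced RNA from 2 libraries of each of 4 genotypes.

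The WT cells were C57Bl/6 Foxp3-CRE-YFP, the RelB-KO cells carried in addition RelB F/F, the Nfkb2-KO cells nfkb2 F/F, and the DKO cells both floxed alleles. Every group, WT included, therefore carried the Foxp3-driven Cre with its YFP reporter, and a gene was removed only where Foxp3 is expressed. Foxp3-CRE-YFP+ cells were sorted after spleen and lymph node cells had been combined. They were stimulated for 16 h on plates coated with 5 µg/ml antibody to CD3, with 1 µg/ml antibody to CD28, 2 µg/ml agonist antibody to OX40 and 10 ng/ml IL-2, so no unstimulated cells are compared. Ages and sexes of the mice are not given in the labels, which do not say that the 2 libraries of a genotype came from separate animals. The 2 WT libraries differ in the sex-linked transcripts given below, so they were not prepared from the same pool of cells. The p-values measure only the spread between these libraries, which in the other genotypes may be technical.

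NF-kB dimers are held in the cytoplasm by classical IkB proteins, which bind them and cover their nuclear localisation signals. When a receptor activates the IKK kinase complex, the IkB protein is phosphorylated, ubiquitinated and degraded, and the dimer enters the nucleus. Nfkbia, Nfkbie and Tnfaip3 are themselves NF-kB targets, so that their products close negative feedback loops. The nuclear IkB proteins bind p50 or p52 homodimers at DNA and can raise or lower transcription there, while A20 and CYLD act upstream, on the ubiquitin chains that carry the signal to IKK. The p100 precursor encoded by Nfkb2 also holds NF-kB dimers through its own IkB-like C-terminal part, and its processed product p52 pairs with RelB. In Treg cells NF-kB activity is known for its part in development and in the activated state.

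The promoters of 4 members are shown because Nfkbie, Nfkbia and Bcl3 had the 3 largest positive differences between Nfkb2-KO and WT among the members, while Cyld was nearly level. Windows from 250 bases before to 50 bases after the transcript start were taken from RefSeq (GRCm38.p6), where 7 of the 8 members had an entry, with 10 windows in all. Capitals mark matches to GGGNNNNNCC, a loose form of the kB motif, on either strand, with overlapping matches run together. The Nfkbie window is chr17:45555450-45555749 on the plus strand, the Nfkbia window chr12:55492598-55492897 on the minus strand, the Bcl3 window chr7:19822706-19823005 on the minus strand and the Cyld window chr8:88696778-88697077 on the plus strand. Each is written 5′ to 3′ along its gene.
Nfkbie: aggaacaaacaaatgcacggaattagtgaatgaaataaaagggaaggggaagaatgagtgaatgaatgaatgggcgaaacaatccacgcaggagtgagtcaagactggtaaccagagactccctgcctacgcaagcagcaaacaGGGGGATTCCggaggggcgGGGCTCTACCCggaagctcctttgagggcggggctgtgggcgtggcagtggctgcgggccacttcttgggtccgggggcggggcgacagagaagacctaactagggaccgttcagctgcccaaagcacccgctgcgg
Nfkbia: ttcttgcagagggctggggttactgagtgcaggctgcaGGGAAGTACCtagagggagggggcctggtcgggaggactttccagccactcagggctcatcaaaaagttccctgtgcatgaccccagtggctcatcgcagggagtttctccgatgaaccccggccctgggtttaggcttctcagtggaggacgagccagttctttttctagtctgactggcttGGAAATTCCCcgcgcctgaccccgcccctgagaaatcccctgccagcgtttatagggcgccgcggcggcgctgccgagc
Bcl3: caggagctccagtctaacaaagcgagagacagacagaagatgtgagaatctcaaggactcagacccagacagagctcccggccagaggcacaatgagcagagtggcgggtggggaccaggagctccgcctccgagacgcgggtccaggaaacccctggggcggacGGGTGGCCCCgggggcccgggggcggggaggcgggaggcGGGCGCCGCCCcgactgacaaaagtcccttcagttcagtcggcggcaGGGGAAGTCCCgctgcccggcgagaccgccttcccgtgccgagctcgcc
Cyld: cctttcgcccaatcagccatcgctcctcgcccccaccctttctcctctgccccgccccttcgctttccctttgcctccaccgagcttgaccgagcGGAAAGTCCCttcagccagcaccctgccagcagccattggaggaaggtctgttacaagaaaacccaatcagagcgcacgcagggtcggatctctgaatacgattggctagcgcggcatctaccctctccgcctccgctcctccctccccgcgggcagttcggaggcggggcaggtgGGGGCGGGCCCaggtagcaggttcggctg

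The loose motif was found in 9 of the 10 windows of the members, and in 50.8% of all 32851 RefSeq promoter windows of this length. The window without it was that of Nfkbib. A narrower form, GGGNNTTNCC, whose matches all match the loose form too, was found in 5 of the 10 windows and in 4.79% of all windows. Those 5 belonged to Nfkbia, Nfkbid, Bcl3, Tnfaip3 and Cyld. The Nfkbia match lies on the opposite strand. It reads GGAAATTCCC along the gene and began 29 bases before the transcript start. The Nfkbie window held 3 loose matches, the outermost beginning 106 bases before the start, and none to the narrower form. These are matches of letters, and the genes had been chosen as members of a pathway known to use this motif.

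On the annotation GENCODE M21 (GRCm38, the assembly also called mm10), Nfkbia lies at chr12:55489410-55492647, Nfkbie at chr17:45555703-45563169, Nfkbiz at chr16:55811375-55838899, Nfkbid at chr7:30421732-30428746 and Tnfaip3 at chr10:19000910-19015657. No other annotated gene overlaps these 5. Nfkbib (chr7:28758251-28767512) overlaps Sirt2 and Ccer2 on the opposite strand, Bcl3 (chr7:19808462-19822770) overlaps 2 antisense genes, and Cyld (chr8:88697028-88751945) holds 2 processed pseudogenes on the opposite strand. The counting is not stated to use strand, so reads in those overlaps cannot be told apart, and the values of these 3 members are less certain for that reason.

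Relb and Nfkb2 were checked first. Relb stood at 10.66 and 10.49 in the WT libraries (log2 expression, replicates 1 and 2 here and below) and at 6.35 and 6.52 in RelB-KO, 10.84 and 10.83 in Nfkb2-KO and 6.74 and 7.08 in DKO. Nfkb2 stood at 12.80 and 12.62 in WT, 12.67 and 12.31 in RelB-KO, 8.75 and 8.79 in Nfkb2-KO and 9.29 and 9.85 in DKO. Both targeted genes were low in the libraries labelled as lacking them, and neither was at 0. Nfkb2 was 0.80 higher in DKO than in Nfkb2-KO. In limma its adjusted p was 0.184, and 0.0379 with the replicate number as a block. The comparison of DKO with Nfkb2-KO therefore holds a difference in remaining Nfkb2 transcript beside the loss of Relb, and its part was not tested. The 6 Treg markers were high in all libraries, with Foxp3 between 13.95 and 14.28. Markers of other cells were lower, but not all were near 0. The summed level of 7 B cell markers lay between 7.84 and 8.19. Pax5 was at 0 throughout, and Cd79b was the highest of them, at 7.09 to 7.72. The sum of 8 myeloid markers lay between 6.96 and 7.58, with Clec9a at 0 and Mpeg1 highest, at 5.61 to 6.23. That of 7 CD8 T and NK cell markers lay between 8.37 and 8.60, with Cd8b1 highest, at 7.57 to 7.87. For 2 sex-linked transcripts WT replicate 1 stood apart from the other 7 libraries. Its Xist level was 8.17, where the others had 14.6 to 15.1, and its Ddx3y level was 11.60, where they had 4.25 to 4.35. Some comparisons with WT are also given without it, and the others include it.

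All 8 inhibitors were well expressed, and Nfkbia was the highest. Levels between genes were compared per kilobase of exon, on a log2 scale and as the mean of the 2 WT libraries. Nfkbia, the main inducible IkB, stood at 12.30 per kilobase. Nfkbid (10.01), Tnfaip3 (9.86), Nfkbib (9.82), Bcl3 (9.65) and Nfkbiz (9.61) followed within a narrow band, and Cyld (8.43) and Nfkbie (8.22) were the lowest. Neighbours within that band differed by less than the gap of 0.54 between the WT libraries of Tnfaip3, so their order is not resolved. In Nfkb2-KO cells Nfkbie reached 8.85 per kilobase and Cyld stood at 8.42, the reverse of their order in WT. All levels per kilobase rest on reading the values as not yet divided by length, although the table's header calls them log2 RPKM. Without that division Cyld (12.08) stood above Nfkbie (10.45) in Nfkb2-KO too, so this reversal is not settled.

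**Figure D1:**
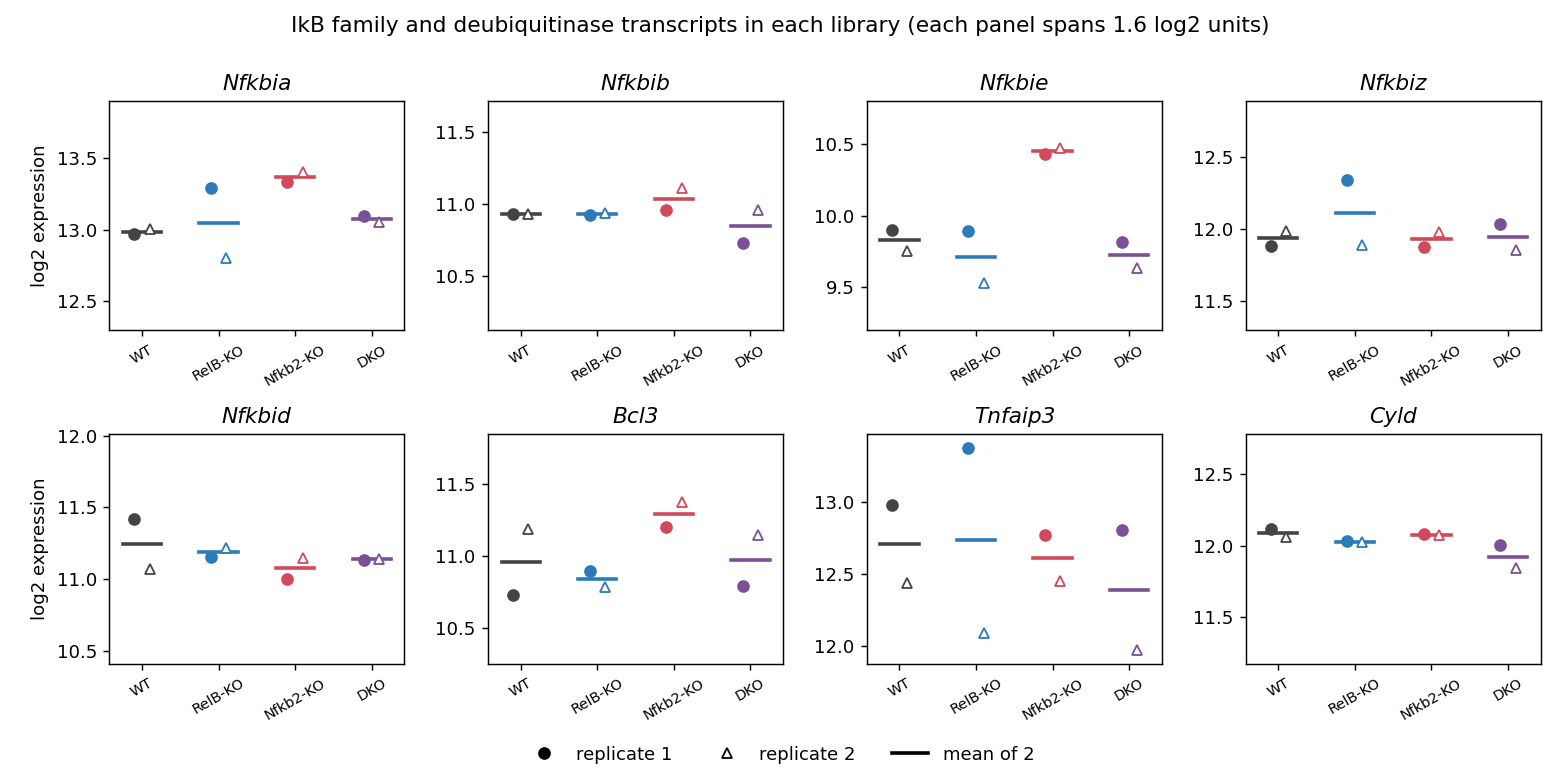
Log2 expression (y axis) of each of the 8 inhibitors in the 4 genotypes (x axis), with a filled circle for replicate 1, an open triangle for replicate 2 and a bar for their mean. Each panel spans the same number of log2 units. Nfkbie stands out in Nfkb2-KO, at 10.43 and 10.47, above the 6 other libraries, and Tnfaip3 shows the widest gaps between replicates.

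Among the classical IkB genes, Nfkbie, which encodes IkB-epsilon, differed most between genotypes. Its values were 9.90 and 9.76 in WT, 9.89 and 9.53 in RelB-KO, 10.43 and 10.47 in Nfkb2-KO and 9.82 and 9.63 in DKO. Both Nfkb2-KO libraries were above all 6 others, and those of WT, RelB-KO and DKO overlapped. Nfkb2-KO was above WT by 0.62 ± 0.13 (log2 difference ± SE, n = 2 each, 1.54-fold, 95% interval 0.30 to 0.95). With limma and Benjamini-Hochberg adjustment over all genes, the unadjusted p was 0.00289 and the adjusted p 0.192, so the difference was not called at 0.05.

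Libraries with the same replicate number deviated together across the genome, and a fit with the replicate number as a block called Nfkbie in 3 comparisons. Against WT, its adjusted p with the block was 0.0130 (SE 0.10, interval 0.40 to 0.84), with Nfkb2-KO above WT by 0.53 in pair 1 and 0.72 in pair 2. Without WT replicate 1 the blocked difference was 0.61 with an adjusted p of 0.0665, and without Nfkb2-KO replicate 2 it was 0.49 with an adjusted p of 0.094, so the call was lost in both cases. The authors' deposited table gives Nfkbie a log2 fold change of 0.68 in Nfkb2-KO against WT, with an adjusted p of 3.29e-05. That table comes from the same libraries and is not separate evidence.

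Against RelB-KO, Nfkbie in Nfkb2-KO was higher by 0.74 ± 0.13 (1.67-fold), with an adjusted p of 0.0855 and of 0.00397 with the block. In DKO it was 0.73 lower than in Nfkb2-KO, a difference of -0.73 ± 0.13 (interval -1.05 to -0.40), with an adjusted p of 0.0884 and of 0.00442 with the block. The fall was -0.61 in pair 1 and -0.84 in pair 2, and without DKO replicate 2 the blocked adjusted p was 0.0807. Loss of Relb alone and loss of both genes left Nfkbie near WT. The difference was -0.12 in RelB-KO (interval -0.44 to 0.21) and -0.10 in DKO (interval -0.42 to 0.22). Whether the effect of losing Relb differed with Nfkb2 status was tested as an interaction, which was -0.61 ± 0.19 with an adjusted p of 0.930 and of 0.134 with the block, and was not called. These comparisons share libraries, so the 3 called differences all rest on the same pair of Nfkb2-KO values.

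Nfkbia, which encodes IkB-alpha, was also highest in Nfkb2-KO, with a smaller difference that was not called. It stood at 12.97 and 13.00 in WT, 13.29 and 12.80 in RelB-KO, 13.33 and 13.40 in Nfkb2-KO and 13.09 and 13.06 in DKO. Both Nfkb2-KO libraries were above the other 6, although RelB-KO replicate 1 came close to them, and the RelB-KO libraries lay on either side of WT and DKO. Nfkb2-KO minus WT was 0.38 ± 0.15 (interval 0.01 to 0.75), with an unadjusted p of 0.0455 and an adjusted p of 0.459, or 0.158 with the block. Leaving out either RelB-KO library brought its blocked adjusted p to 0.042, since the spread is shared between genotypes. Without WT replicate 1, Nfkb2-KO minus WT was smaller, at 0.363, and at 0.287 with the block. The authors' deposited table gives 0.37 with an adjusted p of 0.0666. DKO minus Nfkb2-KO was -0.29, with an adjusted p of 0.652.

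Nfkbib, which encodes IkB-beta, the least inducible of the classical IkB proteins, varied little. Its values were 10.93 and 10.93 in WT, 10.92 and 10.94 in RelB-KO, 10.96 and 11.11 in Nfkb2-KO and 10.73 and 10.96 in DKO. The Nfkb2-KO libraries lay just above WT, and the DKO libraries spanned it. Nfkb2-KO minus WT was 0.10 (interval -0.13 to 0.34, adjusted p = 0.801), which leaves room for a difference of up to the upper bound.

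Of the nuclear IkB genes, Bcl3 showed the pattern nearest to the classical genes, and none of the 3 was called. Bcl3, a coactivator and corepressor bound to p50 and p52 homodimers, stood at 10.73 and 11.19 in WT, 10.90 and 10.78 in RelB-KO, 11.20 and 11.37 in Nfkb2-KO and 10.79 and 11.15 in DKO. The Nfkb2-KO libraries were the highest, but WT replicate 2 and DKO replicate 2 came close to the lower of them. Nfkb2-KO minus WT was 0.33 ± 0.18 (adjusted p = 0.613, and 0.198 with the block). With WT replicate 1 left out, that difference shrank to 0.10, and to 0.17 with the block, so much of it rests on that library. Nfkb2-KO minus RelB-KO was 0.45 ± 0.18 (adjusted p = 0.400, and 0.0812 with the block). The latter passed with the block when either WT library was left out (adjusted p = 0.0479 and 0.0483) or RelB-KO replicate 1 was (0.0221).

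Nfkbiz and Nfkbid did not follow that pattern. Nfkbiz, whose product IkB-zeta switches on secondary response genes, stood at 11.88 and 11.99 in WT, 12.34 and 11.89 in RelB-KO, 11.88 and 11.98 in Nfkb2-KO and 12.04 and 11.85 in DKO. A single library, RelB-KO replicate 1, was high, and the other 7 lay close together. Between Nfkb2-KO and WT the difference was -0.01 (interval -0.38 to 0.37). Nfkbid, whose product IkB-NS takes part in Treg development, stood at 11.42 and 11.07 in WT, 11.15 and 11.22 in RelB-KO, 11.00 and 11.15 in Nfkb2-KO and 11.14 and 11.14 in DKO. Here WT replicate 1 was the high library. Nfkb2-KO minus WT was -0.17 (interval -0.47 to 0.13, adjusted p = 0.724). Without WT replicate 1 the difference turned to 0.01, so its sign rests on that library.

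The deubiquitinase genes gave the widest and the narrowest spread of the set. Tnfaip3 stood at 12.98 and 12.44 in WT, 13.38 and 12.09 in RelB-KO, 12.78 and 12.45 in Nfkb2-KO and 12.81 and 11.97 in DKO. Replicate 1 was higher than replicate 2 in all 4 genotypes, and the genotypes overlapped. The gap between replicates ran from 0.33 in Nfkb2-KO to 1.29 in RelB-KO, while the largest difference between genotype means was 0.35, between RelB-KO and DKO. The Nfkb2-KO mean differed from that of WT by -0.10, with an interval of -1.22 to 1.02 that the block narrowed to -0.52 to 0.32. A change of the size seen in Nfkbie therefore lay outside the blocked interval and inside the other. Without WT replicate 1 the difference was 0.174, and -0.235 with the block, so its sign is not settled.

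Cyld stood at 12.11 and 12.06 in WT, 12.03 and 12.02 in RelB-KO, 12.08 and 12.07 in Nfkb2-KO and 12.00 and 11.84 in DKO. The DKO libraries were the lowest, by little. DKO minus WT was -0.16 ± 0.08 (adjusted p = 0.861, and 0.386 with the block). For Nfkb2-KO against WT the difference was -0.01, with an interval of -0.20 to 0.18.

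**Figure D2:**
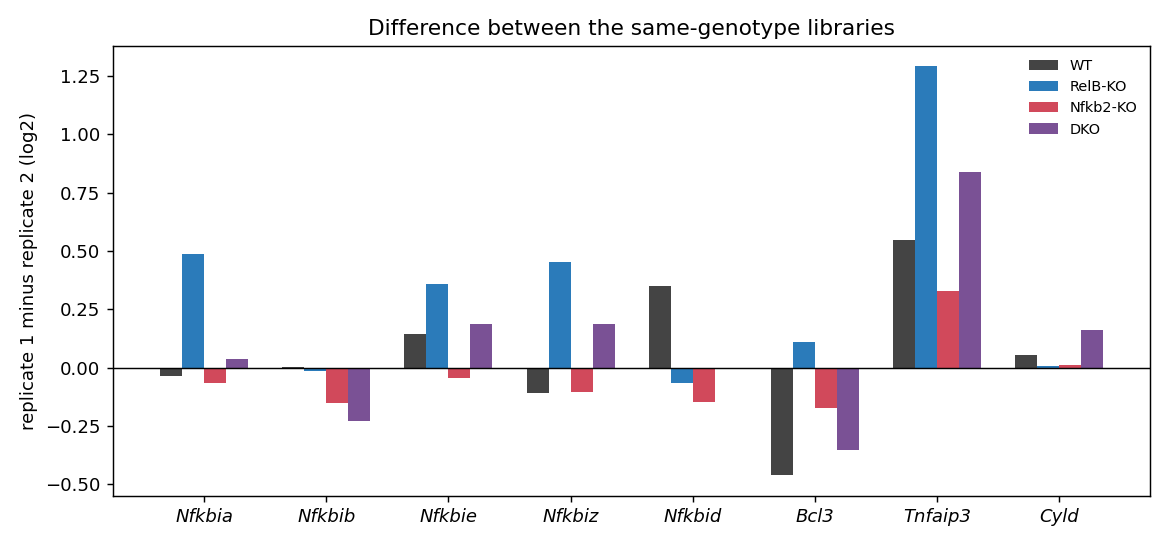
Replicate 1 minus replicate 2 (y axis, log2) for each inhibitor (x axis), with 1 bar per genotype. Tnfaip3 is positive in all 4 genotypes, from 0.33 to 1.29, while Nfkbib stays between -0.23 and 0.002.

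Counted together, 0 of the 8 inhibitors were called by limma in any of the 7 contrasts. Of all genes tested, 0.00725% were called in RelB-KO against WT, 0.341% in Nfkb2-KO against WT, 0.0145% in DKO against WT, 0.797% in Nfkb2-KO against RelB-KO, 0.00725% in DKO against RelB-KO, 0.768% in DKO against Nfkb2-KO and 0.00725% in the interaction. At an unadjusted p under 0.05, Nfkbie and Nfkbia passed in Nfkb2-KO against WT (10.7% of all genes did), Nfkbie and Bcl3 in Nfkb2-KO against RelB-KO (11.9%), and Nfkbie in DKO against Nfkb2-KO (9.86%) and in the interaction (4.45%). None passed in RelB-KO against WT (1.24%), DKO against WT (5.18%) or DKO against RelB-KO (2.88%). With the block, 1 of 8 (Nfkbie) was called in Nfkb2-KO against WT, where 2.91% of all genes were, in Nfkb2-KO against RelB-KO (4.46% of all genes) and in DKO against Nfkb2-KO (5.02% of all genes). No inhibitor was called with the block in RelB-KO against WT (0.0145%), DKO against WT (0.0652%), DKO against RelB-KO (0.0145%) or the interaction (0.471%). At an unadjusted p under 0.05 with the block, 3 of 8 passed in Nfkb2-KO against WT (18.3% of all genes), 3 in Nfkb2-KO against RelB-KO (20.1%) and 4 in DKO against Nfkb2-KO (16.3%). Under the same rule 0 passed in RelB-KO against WT (3.13%), 1 in DKO against WT (12.9%), 0 in DKO against RelB-KO (8.81%) and 1 in the interaction (8.36%).

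In the authors' deposited table, 1 of 8 inhibitors (Nfkbie) had an adjusted p under 0.05 in Nfkb2-KO against WT, where 6.22% of the genes with such a value did. There 0 of 8 did in RelB-KO (0.119% of genes) and in DKO (1.23% of genes).

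The direction of the values divided the set. In Nfkb2-KO both libraries were above both WT libraries for 4 of 8 inhibitors (Nfkbia, Nfkbib, Nfkbie and Bcl3), as they were for 21.6% of all genes tested. In DKO both libraries were below both Nfkb2-KO libraries for 5 of 8 (the same 4 genes and Cyld), against 17.8% of all genes. The median log2 difference over the 8 was 0.05 in Nfkb2-KO against WT and -0.21 in DKO against Nfkb2-KO, and the median over all genes was 0.00 in each. The 3 classical genes alone had a median of 0.38 and of -0.29 in those comparisons, and the 3 nuclear genes of -0.01 and 0.02. The Nfkb2-KO libraries enter both comparisons. With so few genes these are descriptions of the set.

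**Figure D3:**
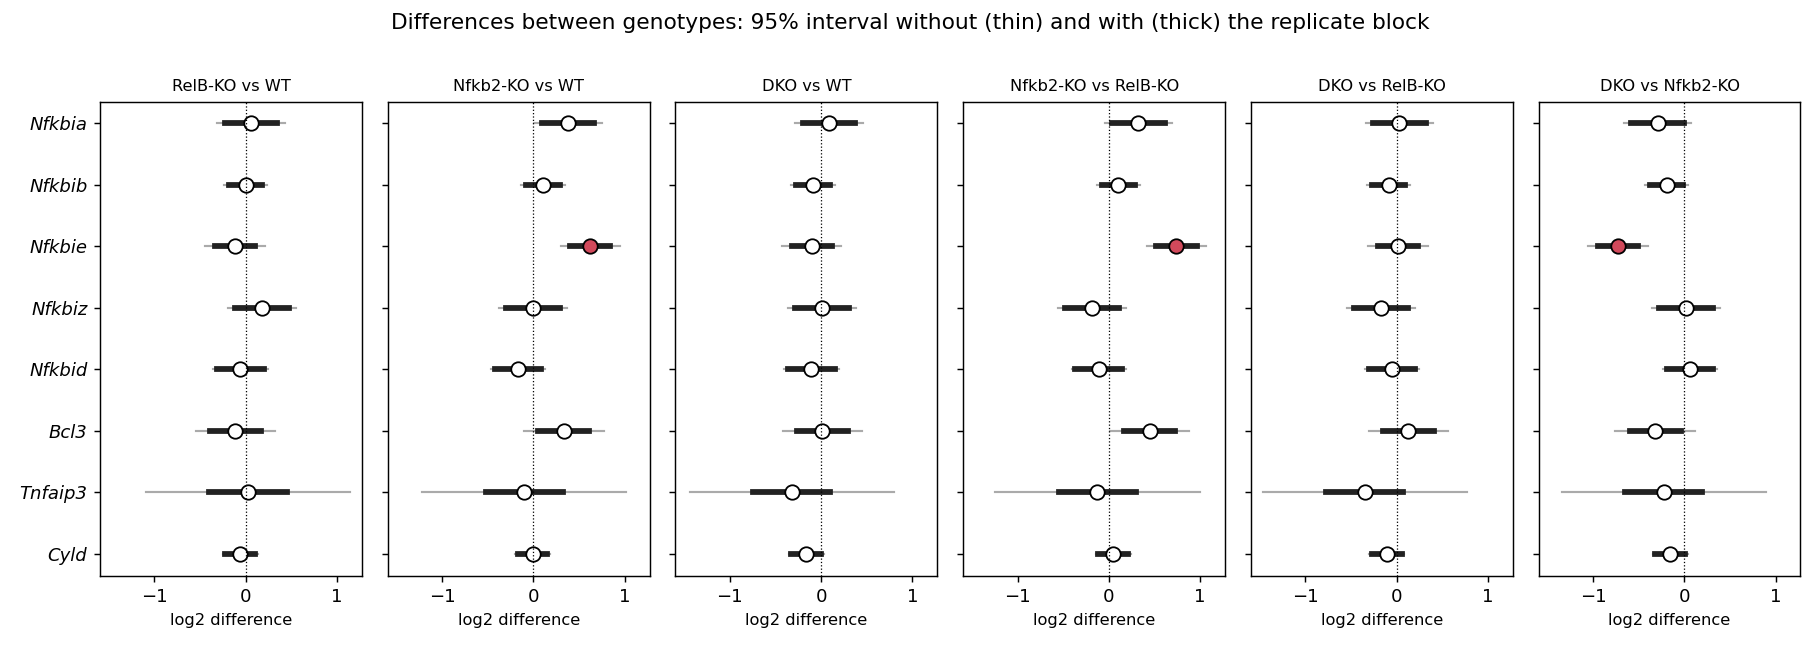
Log2 difference (x axis, first genotype minus second) of each inhibitor (y axis) in the 6 comparisons of genotypes. Thin lines are 95% intervals without the replicate block and thick lines with it, and red points have an adjusted p under 0.05 with the block. Nfkbie is red in the 3 comparisons that include Nfkb2-KO, at 0.62, 0.74 and -0.73, and Tnfaip3 has the widest intervals.

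The range of the 4 genotype means placed Nfkbie at percentile 97.8 of all tested genes (range 0.74), Bcl3 at 92.8 (0.45), Nfkbia at 90.0 (0.38), Tnfaip3 at 87.9 (0.35), Nfkbib at 65.8 (0.19), Nfkbiz at 63.8 (0.19), Nfkbid at 58.9 (0.17) and Cyld at 57.6 (0.16). After the mean of each replicate number had been subtracted, the genes most like Nfkbie over the 8 libraries were Ubtd2 (Pearson r = 0.995), Mfhas1 (0.994) and Tnfrsf11a (0.992), out of 1194 genes with an SD of at least 0.2. These are the highest of many correlations over libraries that share 4 genotypes, and are given as a description. Their means in WT and Nfkb2-KO were 8.83 and 9.38 for Ubtd2, 10.27 and 10.86 for Mfhas1, and 5.24 and 6.25 for Tnfrsf11a, which encodes the receptor RANK. Since they were chosen for their likeness to Nfkbie, no test of these differences is given.

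Other negative regulators of the pathway were examined beside the 8. For this list and those below, the block called 2.91% of all genes in Nfkb2-KO against WT and 5.02% in DKO against Nfkb2-KO. Without the block the shares were 0.341% and 0.768%. Of the 21 negative regulators listed 20 were tested. In Nfkb2-KO against WT 0 were called without the block, while 4 rose and 0 fell with it. The 4 were Tnip3 (1.24) and Tnip2 (0.59), which encode ABIN proteins that work with A20, Zc3h12c (0.64), of the Regnase family of RNA-degrading enzymes, and Traf3 (0.34), which keeps the kinase NIK low. Tnip2, Tnip3 and Zc3h12c were called with the block whichever of the 8 libraries was left out, WT replicate 1 included, and Traf3 in 2 of the 8 cases. Tnip3 stood at 8.74 and 8.86 in WT, 8.43 and 8.54 in RelB-KO, 10.03 and 10.06 in Nfkb2-KO and 8.81 and 9.38 in DKO. As with Nfkbie, the Nfkb2-KO libraries were the highest. Against RelB-KO, Tnip3 (1.56, adjusted p = 0.0214) and Tnip2 (0.61, adjusted p = 0.0388) passed without the block too. In DKO against Nfkb2-KO, Tnip3 (-0.95), Zc3h12c (-0.92), Tnip2 (-0.52) and Otud7b (-0.48), a deubiquitinase of the A20 family also called Cezanne, fell with the block, N4bp1 (0.72) rose in both fits, and Tank (0.37) rose with the block. With each library left out in turn, Tnip3 and Zc3h12c were called with the block in 8 of 8 cases. Without DKO replicate 2 the calls of Tnip2, N4bp1 and Tank were lost, so that 0 rose and 3 fell. The call of Tank was lost in 4 of the 8 cases and that of Otud7b in 2. Tnip1, which encodes a further ABIN protein, was not called in any contrast, at 0.22 in Nfkb2-KO against WT (adjusted p with the block 0.132) and -0.28 in DKO against Nfkb2-KO (0.0546).

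Genes that act before and after the IkB proteins were described in the same way. Among 18 genes of the IKK complex and its upstream signalling, 0 were called in Nfkb2-KO against WT without the block, and Birc2 (0.81), which encodes the ubiquitin ligase cIAP1, and Traf2 (0.37), its adaptor, rose with it. Without WT replicate 1, Birc2 remained called and Traf2 did not. In DKO against Nfkb2-KO, Birc2 fell by 1.01 in both fits, and Traf2 and Bcl10, each at -0.47, fell with the block. Birc2 was called in all 8 cases with a library left out, and was the 1 gene of the list called without Nfkb2-KO replicate 1 or without DKO replicate 1. Bcl10 lost its call in 4 cases and Traf2 in 3. None of the 5 ubiquitin ligase genes that build linear or K63 chains and none of the 6 genes of the SCF complex that marks IkB proteins for degradation was called in either fit, in any contrast. At most 5.02% of all genes were called in any contrast, so the lack of calls in lists this short says little about them.

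NF-kB target genes were described as a further list of 26, which holds none of the 8 inhibitors. In Nfkb2-KO against WT 22 of 26 had positive differences (median 0.23, with 50.4% of all genes positive). With the block 5 rose, among them Irf4 (0.56), Traf1 (0.55) and Ltb (0.48), and Irf1 (-0.47) fell, while 0 were called without it. Without WT replicate 1 only Bcl2a1a and Irf4 rose and 0 fell with the block, and without Nfkb2-KO replicate 1 none of the 26 was called. In DKO against Nfkb2-KO the median was -0.23. With the block 6 fell, led by Ltb (-1.21) and Traf1 (-0.95), and Ebi3 (0.65) rose, and without it Ltb alone was called. Without DKO replicate 2, Ltb was the 1 target called with the block. Of NF-kB subunits other than the targeted pair, Rel was 0.52 lower in DKO than in Nfkb2-KO, a difference of -0.52 that was called with the block but not without Nfkb2-KO replicate 2 or DKO replicate 2, and Rela and Nfkb1 were not called there.

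**Figure D4:**
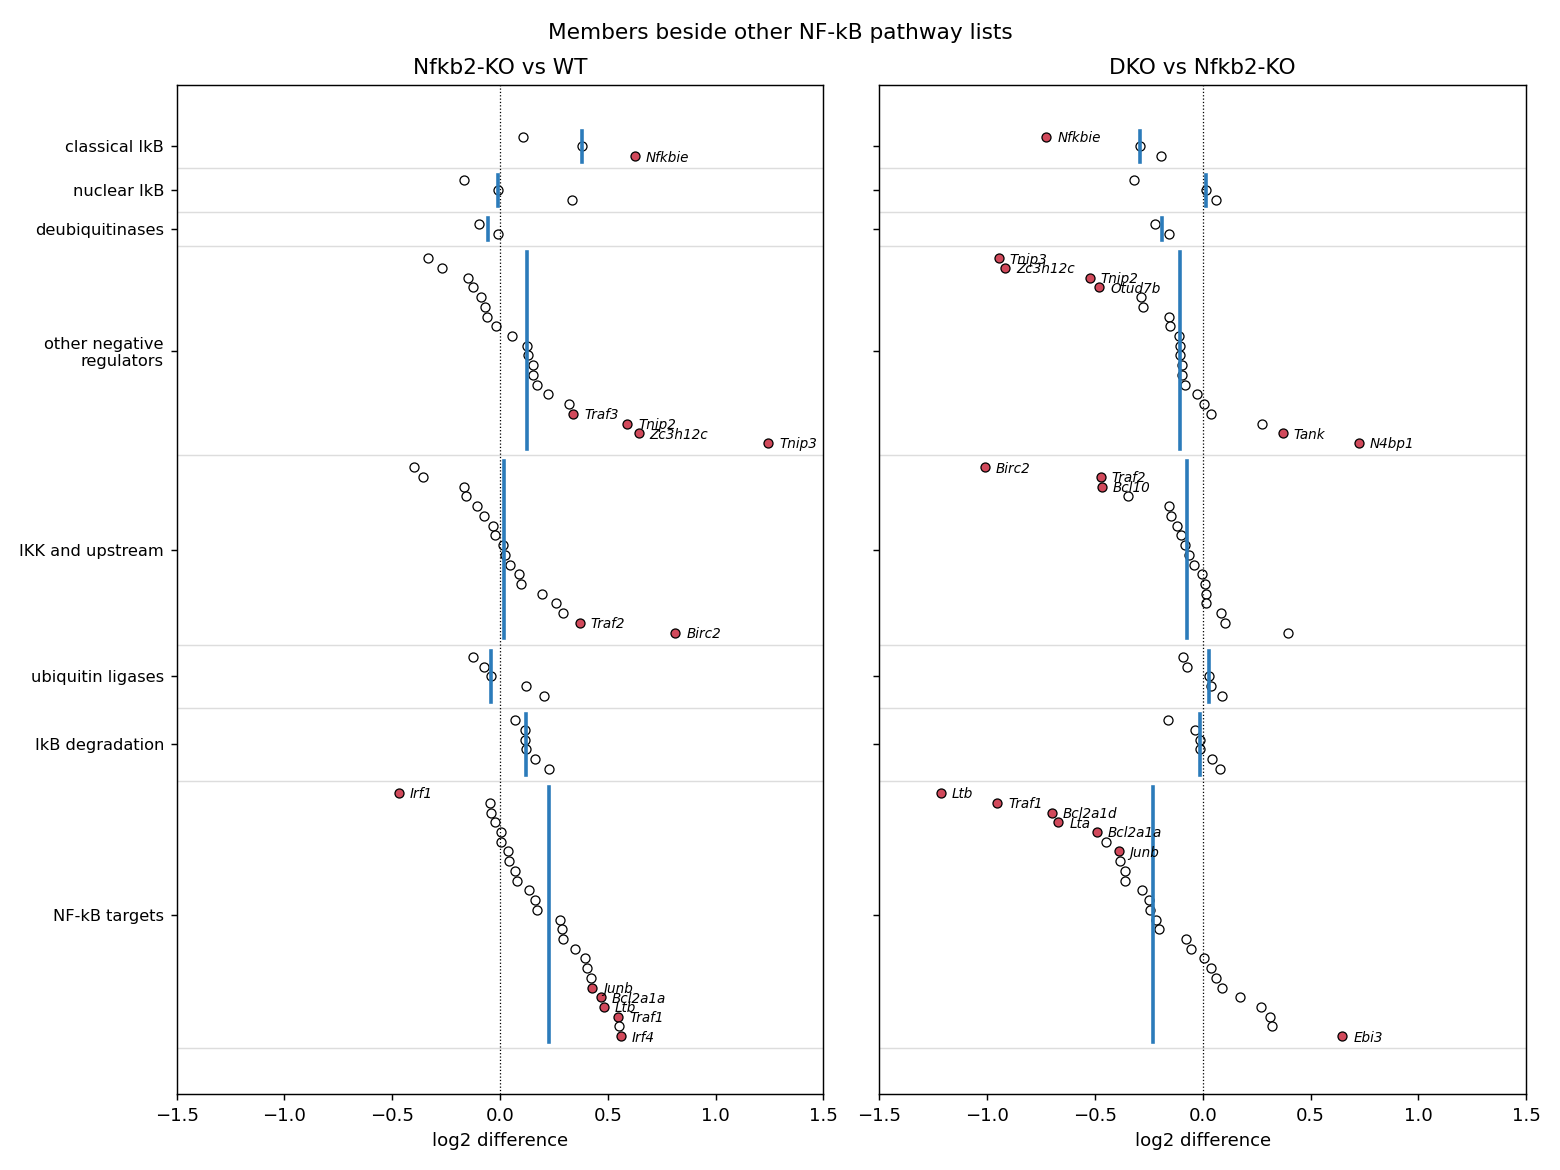
Log2 differences (x axis) of single genes, 1 row each, grouped by list (y axis), for Nfkb2-KO minus WT and DKO minus Nfkb2-KO. Red points have an adjusted p under 0.05 with the replicate block and are named, and blue lines are list medians. The classical IkB genes have medians of 0.38 and -0.29 with Nfkbie red in both panels, and Tnip3 and Birc2 lie farther out in the same directions.

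Blk, listed among the B cell markers, was 0.21 higher in Nfkb2-KO than in WT and was called with the block, at a low level between 3.30 and 3.60 in all libraries. That call was lost in 4 of 8 cases, on leaving out either WT library or either Nfkb2-KO library. Without the block, Blk was called as higher in Nfkb2-KO than in RelB-KO and as lower in DKO than in Nfkb2-KO. The B cell defining marker Pax5 stood at 0 throughout, while Cd79b lay between 7.09 and 7.72. The summed B cell markers of Nfkb2-KO (8.06 to 8.14) lay above those of WT (7.85 to 8.04). They were 7.84 to 8.14 in RelB-KO and 8.17 to 8.19 in DKO. Whether B cell content differed was not tested. In bulk RNA, fewer cells of a type and less RNA per cell cannot be told apart.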

How the data were processed

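RNA of 8 sorted and stimulated mouse Treg libraries had been sequenced, with 30 M reads per sample by design. The authors deposited 1 table whose header calls the values log2 RPKM, batch corrected. The submitters' processing notes name STAR, mm10 and DESeq2 1.10.1 without roles, and the counter and batch method are not given in the sources used here. Un-logged values summed to 18.2 to 19.7 M per library and, times exonic kilobases, to 110.2 to 114.2 M, too high for RPKM. The values were read as log2 expression relative to library size, not per length. The sums do not exclude values per length on another scale. Counts are not used here, so the depth behind a value is not known. The table's p-values and log2 fold changes are the authors', per the file headers. Its 8 columns of z-scores were not used.

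limma 3.58.1 in R 4.3.3 (empirical Bayes with a variance trend) was fitted to the log2 values of the 13797 genes whose un-logged values averaged 1 or more, with genotype as the only term (4 residual degrees of freedom). A gene was called in any of 7 contrasts when its p, adjusted by Benjamini-Hochberg over those genes, was under 0.05. The interaction subtracts the RelB-KO against WT difference from that of DKO against Nfkb2-KO. Of the genes listed, 6247 were at 0 in all libraries and 1 had a blank cell. Replicate numbers come from the sample titles. Replicate 1 minus replicate 2 correlated across genes at 0.812 to 0.887 in the 6 pairs of genotypes, so the numbers were taken as pairing the libraries, and a fit with the number as a block (3 residual degrees of freedom) is given where it changes a call. Per-kilobase levels subtract log2 of exonic length (GENCODE M21). The fit was also run on simulated data with planted differences, and how many of those it recovered is not reported here. A list of genes that nuclear IkB proteins act on is not reported here. The members, lists and tests were chosen with earlier results of these data known. The plan was to name the 8 members, the targeted genes and the 3 genes most like Nfkbie. It also allowed up to 4 called genes of each list by size. More were named for the other negative regulators, and some genes were named without a call, such as Tnip1, Rela and Nfkb1. The alternatives were the block, the compared groups only, a pseudocount of 1, no filter, quantile normalization, no variance trend and leaving out each library.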

Additional observations from a re-analysis of the deposited data

How the results depend on the processing

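Without the replicate block, 0 of the 8 inhibitors were called in each of the 7 contrasts under every alternative run, including leaving out each library. The replicate block moved the count to 1 in Nfkb2-KO against WT, Nfkb2-KO against RelB-KO and DKO against Nfkb2-KO, through Nfkbie at 0.62, 0.74 and -0.73, and changed no other call of an inhibitor. Leaving out each library in the blocked fit was added after seeing the data. The count then ranged from 0 to 2 in Nfkb2-KO against WT (Nfkbie 0.49 to 0.76), from 1 to 3 in Nfkb2-KO against RelB-KO (0.61 to 0.88) and from 0 to 1 in DKO against Nfkb2-KO (-0.86 to -0.59). It was 0 in the first without WT replicate 1 (0.61) or Nfkb2-KO replicate 2 (0.49), and in the last without DKO replicate 2 (adjusted p = 0.0807). The cause was not tested. Where an arm is left with 1 library, that library is assumed to vary like the others. Of 776 alternative values of the inhibitors 44 changed sign, 43 of them on leaving out a library, and 0 of those were called.

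Over all genes, the block moved the counts called from 1, 47, 2, 110, 1, 106 and 1 (the contrasts in the order of the report) to 2, 402, 9, 615, 2, 693 and 65. In Nfkb2-KO against WT the count was 20 with no filter, 12 with no variance trend and 1 with only the compared groups, and 0 to 29 on leaving out a library, with 0 without WT replicate 1. With only the compared groups it was 13 in Nfkb2-KO against RelB-KO, 13 in DKO against Nfkb2-KO and 0 in DKO against WT and DKO against RelB-KO. With no variance trend it was 1 in DKO against WT and 0 in DKO against RelB-KO and in the interaction, and with no filter 0 in DKO against RelB-KO. Leaving out a library gave 9 to 55 in Nfkb2-KO against RelB-KO, 8 to 58 in DKO against Nfkb2-KO and at most 13 in the other 4. With the block the ranges were 143 to 486 in Nfkb2-KO against WT, 229 to 782 in Nfkb2-KO against RelB-KO and 135 to 804 in DKO against Nfkb2-KO. Depth is unknown. The 1380 tested genes with the lowest means spanned a median of 0.05 (log2) over the libraries and the 6898 above the median level 0.34, so differences at low levels, as of Blk and Tnfrsf11a, may be understated.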
